A study of Mus musculus with 30 samples.

Results

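Chromatin immunoprecipitation with a pan-Kcr antibody, which binds crotonylated lysine, was compared with immunoprecipitation with a pan-Kac antibody, which binds acetylated lysine, in mouse neural stem and progenitor cells (NSPCs) given crotonate. The members were all peaks of both deposited lists, 23301 for Kcr and 21616 for Kac, which makes 44917 of the 128515 peaks in the 8 lists of the series. A peak was called shared where it overlapped a peak of the other mark by 1 bp or more, and a single-mark peak otherwise. The cells came from C57BL/6 forebrain at E13.5, mid-neurogenesis of the embryo, and were grown with epidermal and fibroblast growth factors at early passage. The crotonate group had 10 mM crotonate for 24 h, for which no solvent is named in the labels. The control group had DMSO for the same time, and both were cultures of a mixed progenitor population and not of 1 clone. Each mark had 1 library per treatment, so no difference between the Kcr and Kac lists has a replicate check and none was tested. RNA of the same groups was sequenced in 4 libraries each, which the study calls biological replicates. A further group of the same cells, given 1 µM MS-275 for 24 h, also had 4 RNA libraries. Its RNA entered the same fit as crotonate and control, and its Kcr and Kac lists are among the 8. The Kcr and Kac lists of control cells, and the H3K9cr and H3K9ac lists of untreated forebrain at the same age, served for comparison.

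Histone lysines carry acetyl groups, and in smaller amount longer acyl groups such as crotonyl, which are taken from acetyl-CoA and crotonyl-CoA by partly the same acyltransferases and removed by partly the same deacetylases. Crotonate is turned into crotonyl-CoA in the cell, and adding it to culture medium is a usual way of raising histone crotonylation. Both marks are known from the starts of active genes, where they are bound by reader proteins with bromodomains, YEATS domains or double PHD fingers. NSPCs of the embryonic forebrain divide to renew themselves and give rise to neurons and later to glia.

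In the crotonate RNA libraries all 14 markers of neural stem cells and radial glia were at 1 TPM or more, where TPM is a level scaled for transcript length and for the library's total. Their summed level was 9314 to 10199 TPM in crotonate libraries and 9905 to 10440 TPM in control libraries. No marker of microglia (0 of 5) or of erythroid cells (0 of 5) reached a mean of 1 TPM, and 1 of 5 endothelial markers did. The 6 neuronal markers summed to 281 to 308 TPM with crotonate and to 313 to 334 TPM in control, and the 5 astrocyte markers to 109 to 124 TPM with crotonate and to 73.7 to 88.1 TPM in control. The part of these shifts in the results was not tested. The NSPC peak lists give positions alone, without a height, a read number or a calling threshold, so the absence of a peak says only that none was listed.

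The sequences shown are promoters, since most shared peaks lay within 1 kb of a listed gene start. The windows shown are those of RefSeq on GRCm38.p6, from 250 bases before to 50 bases after a gene's start, written 5' to 3' on the gene's strand. The first set shows, in capitals, the bases inside a peak of 1 mark in a window with no base in a peak of the other mark. It was chosen after the values were seen, as windows of named single-mark genes with many bases in the peak. Mgarp encodes a mitochondrial protein, and its window, chr3:51396498-51396797 on the minus strand, had 211 bases in a Kcr peak. Dlx1, a homeobox regulator of forebrain interneurons, had 189 bases of chr2:71529195-71529494, plus strand, in a Kcr peak. Cebpb, a transcription factor of the basic leucine zipper kind, had 218 bases of chr2:167688665-167688964, plus strand, in a Kac peak. Psat1, an enzyme of serine synthesis, had 128 bases of chr19:15924573-15924872, minus strand, in a Kac peak.
Mgarp (Kcr alone): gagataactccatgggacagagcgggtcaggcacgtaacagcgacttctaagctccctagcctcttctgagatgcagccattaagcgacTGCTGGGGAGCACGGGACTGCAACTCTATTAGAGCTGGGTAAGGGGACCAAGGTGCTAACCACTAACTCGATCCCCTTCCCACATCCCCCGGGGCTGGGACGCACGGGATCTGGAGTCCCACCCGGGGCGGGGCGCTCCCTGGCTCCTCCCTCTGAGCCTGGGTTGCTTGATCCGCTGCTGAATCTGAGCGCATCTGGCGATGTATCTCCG
Dlx1 (Kcr alone): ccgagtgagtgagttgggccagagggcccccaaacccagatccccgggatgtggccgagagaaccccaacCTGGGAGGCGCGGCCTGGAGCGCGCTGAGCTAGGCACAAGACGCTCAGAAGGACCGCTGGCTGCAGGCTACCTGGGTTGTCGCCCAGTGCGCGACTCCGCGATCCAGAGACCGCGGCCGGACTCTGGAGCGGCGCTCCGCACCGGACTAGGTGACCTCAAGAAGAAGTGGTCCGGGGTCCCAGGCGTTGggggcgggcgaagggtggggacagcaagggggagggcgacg
Cebpb (Kac alone): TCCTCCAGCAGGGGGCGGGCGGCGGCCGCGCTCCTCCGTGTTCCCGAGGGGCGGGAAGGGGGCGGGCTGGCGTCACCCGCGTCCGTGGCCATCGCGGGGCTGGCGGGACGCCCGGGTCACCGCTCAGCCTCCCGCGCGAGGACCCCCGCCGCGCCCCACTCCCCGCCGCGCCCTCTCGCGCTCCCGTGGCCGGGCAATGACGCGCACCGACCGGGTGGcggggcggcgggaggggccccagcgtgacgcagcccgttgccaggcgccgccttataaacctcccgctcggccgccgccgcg
Psat1 (Kac alone): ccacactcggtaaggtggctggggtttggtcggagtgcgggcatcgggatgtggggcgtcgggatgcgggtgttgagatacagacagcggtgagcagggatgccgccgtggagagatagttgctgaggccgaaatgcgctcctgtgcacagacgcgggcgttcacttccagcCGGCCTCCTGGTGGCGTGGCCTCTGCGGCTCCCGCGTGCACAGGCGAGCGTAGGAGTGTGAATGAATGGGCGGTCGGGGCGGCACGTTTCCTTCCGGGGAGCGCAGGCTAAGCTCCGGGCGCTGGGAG

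The second set shows CpG dinucleotides in capitals, a feature in which the classes of promoter differed. Its genes were taken by level, as the highest of each class with a listed window or the next one. Rps6, a protein of the small ribosomal subunit with a Kcr peak alone, had 23 CpG in chr4:86857318-86857617, minus strand. That window held 0 bases of a Kcr peak, and the nearest Kcr peak was 334 bp from the start of Rps6. Rps24, of the same subunit with a Kac peak alone, had 14 CpG in chr14:24490428-24490727, plus strand. Ckb, the brain creatine kinase with both marks, had 22 CpG in chr12:111672289-111672588, minus strand.
Rps6 (Kcr alone): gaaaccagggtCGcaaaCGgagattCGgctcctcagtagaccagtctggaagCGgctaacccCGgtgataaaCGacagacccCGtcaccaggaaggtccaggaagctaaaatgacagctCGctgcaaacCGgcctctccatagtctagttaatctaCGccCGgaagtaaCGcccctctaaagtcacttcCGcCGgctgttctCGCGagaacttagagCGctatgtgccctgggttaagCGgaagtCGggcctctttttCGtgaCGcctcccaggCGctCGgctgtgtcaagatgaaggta
Rps24 (Kac alone): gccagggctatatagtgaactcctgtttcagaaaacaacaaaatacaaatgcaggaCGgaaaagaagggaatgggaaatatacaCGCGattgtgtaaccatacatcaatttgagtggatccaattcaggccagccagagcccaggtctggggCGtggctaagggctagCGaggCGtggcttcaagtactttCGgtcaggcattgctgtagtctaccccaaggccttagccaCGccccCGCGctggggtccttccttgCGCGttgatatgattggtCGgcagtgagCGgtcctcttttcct
Ckb (both marks): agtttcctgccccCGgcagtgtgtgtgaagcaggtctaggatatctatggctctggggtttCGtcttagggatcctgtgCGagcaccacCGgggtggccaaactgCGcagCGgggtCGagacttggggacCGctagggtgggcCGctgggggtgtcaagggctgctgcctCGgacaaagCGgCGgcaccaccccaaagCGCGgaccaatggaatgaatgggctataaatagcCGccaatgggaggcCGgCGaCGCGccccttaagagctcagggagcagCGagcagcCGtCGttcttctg

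Over all 32851 windows, each classed by the peaks within 1 kb of its own start, the median number of CpG was 20 where Kcr alone was listed, 18 where Kac alone was, 23 where both were and 4 where neither was, against 7 in all windows. The quartiles were 12 and 27 for Kcr alone and 9 and 26 for Kac alone, so the single-mark classes overlapped widely. A Kcr peak touched 845 of the 2012 windows with Kcr alone, and a Kac peak 575 of the 1219 with Kac alone. The values thus describe windows near the marks and not the bases under them. At least 15 CpG were found in 67.9% of windows with Kcr alone, 59.4% with Kac alone, 77.0% with both and 34.6% of all windows. Among windows with 0 to 4 CpG, 0.912% had Kcr alone, 0.992% had Kac alone and 2.88% had both. Among those with 20 to 24 CpG the shares were 15.3%, 7.14% and 57.2%, so Kcr alone exceeded Kac alone most in windows rich in CpG.

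Short motifs were searched on both strands in the same windows, and none of the letter strings contains another. GGGCGG, the core of the GC box, was in 61.0% of windows with Kcr alone, 56.3% with Kac alone, 68.4% with both and 35.7% of all. TATAAA, the letters of the TATA box, was in 6.56% of windows with Kcr alone, 8.78% with Kac alone, 5.44% with both and 13.6% of all. CCAAT was in 39.6% with Kcr alone, 40.4% with Kac alone and 37.4% of all, and CACGTG, the E-box, in 11.0%, 9.02% and 7.15%. TGACGTCA, the cyclic AMP response element, was in 2.93% of windows with Kcr alone, 3.20% with Kac alone and 1.79% of all. Both single-mark classes thus lay between the windows with both marks and all windows for CpG, GGGCGG and TATAAA. The other strings did not follow that order, with CCAAT in 33.8%, CACGTG in 9.67% and TGACGTCA in 3.21% of windows with both marks. A match of letters is a description and no binding site.

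With an overlap of 1 bp or more, most peaks of each list were shared. Of the 23301 Kcr peaks, 14444 (62.0%) overlapped a Kac peak and 8857 (38.01%) did not. Of the 21616 Kac peaks, 13955 (64.6%) overlapped a Kcr peak and 7661 (35.4%) did not. This majority depends on the rule: with a reciprocal overlap of at least 50% of both peaks, 9432 Kcr peaks were shared. Where both peaks had to reach 500 bp, 1448 of 3002 Kcr and 1440 of 3658 Kac peaks were. With a partner of any width, 2761 of these 3002 Kcr and 3290 of these 3658 Kac peaks were shared. Joined into places, the lists gave 29697, of which 8851 (29.8%) held Kcr alone, 7654 (25.8%) Kac alone and 13192 (44.4%) both. By length the lists agreed less, since the 4.08 Mb covered by both were 53.4% of the Kcr bases, 52.4% of the Kac bases and 36.0% of the bases under either.

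Where peaks met, they met broadly. The median shared Kcr peak had 85.6% of its bases under a Kac peak and the median shared Kac peak 80.1% of its bases under a Kcr peak. Just inside the threshold, 380 Kcr peaks (2.63% of those shared) and 333 Kac peaks (2.39%) shared 50 bp or less. Just outside it, 301 single-mark Kcr peaks and 265 single-mark Kac peaks ended within 50 bp of a peak of the other mark. A Kac peak lay within 1 kb of 4248 (48.0%) of the single-mark Kcr peaks, and a Kcr peak within 1 kb of 3693 (48.2%) of the single-mark Kac peaks. At the other end, 3700 single-mark Kcr peaks (41.8%) and 3251 single-mark Kac peaks (42.4%) had no peak of the other mark within 5 kb. Single-mark peaks therefore fell into neighbours of the other mark and isolated ones in nearly the same proportion for each mark.

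The marks were shared less evenly without crotonate. In control cells 80.7% of 17669 Kcr peaks overlapped a Kac peak and 59.5% of 23427 Kac peaks overlapped a Kcr peak, against 62.0% and 64.6% with crotonate. The Kcr list was longer with crotonate than in control and the Kac list was shorter. Bases under both marks were 36.0% of the bases under either with crotonate and 42.8% in control. In the forebrain lists, 99.6% of 12492 H3K9cr peaks overlapped an H3K9ac peak and 68.5% of 16610 H3K9ac peaks overlapped an H3K9cr peak. The lists differ in library, length and unstated threshold, which cannot be told apart from a difference between the marks. The forebrain lists are moreover of H3K9 marks in tissue, with wider peaks, at medians of 802 bp for H3K9cr and 1093.5 bp for H3K9ac. The crotonate lists had medians of 274 bp for Kcr and 297 bp for Kac, so the forebrain shares are no like comparison.

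Sharing followed width. Shared peaks had a median width of 320 bp for Kcr and 341 bp for Kac, and single-mark peaks of 226 bp for Kcr and 247 bp for Kac. Only 241 single-mark Kcr peaks (2.72%) and 368 single-mark Kac peaks (4.80%) reached 500 bp, against 2761 (19.1%) and 3290 (23.6%) of the shared ones. Of peaks under 200 bp, 41.0% of Kcr and 41.3% of Kac peaks were shared, and the share grew in every wider bin to 98.4% of 193 Kcr and 97.2% of 316 Kac peaks of 1000 bp or more. A wide peak has more room to meet another, and how much of the trend this makes was not tested. The narrowest peaks were 175 bp for Kcr and 192 bp for Kac, so the lists also began at different widths.

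**Figure D1:**
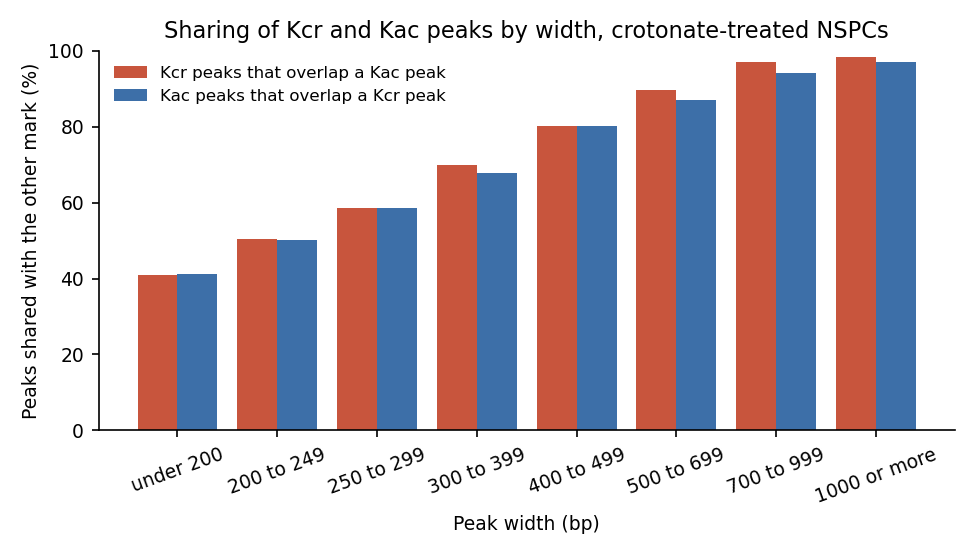
Share of Kcr peaks (red bars) and Kac peaks (blue bars) of crotonate-treated NSPCs that overlap a peak of the other mark by 1 bp or more, in percent, against peak width in bp. Both marks run from 41.0% and 41.3% under 200 bp to 98.4% and 97.2% at 1000 bp or more.

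Single-mark Kcr peaks lay nearer to gene starts than single-mark Kac peaks. A listed gene start was within 1 kb of 4024 single-mark Kcr peaks (45.4%) and of 2825 single-mark Kac peaks (36.9%), and of 59.2% of shared Kcr and 59.3% of shared Kac peaks. Between genes lay 1328 single-mark Kcr peaks (14.99%) and 1751 single-mark Kac peaks (22.9%), against 10.3% of shared peaks of either list. The gap was wider for isolated peaks, with no peak of the other mark within 5 kb. Of these, 42.1% of Kcr and 29.0% of Kac peaks were within 1 kb of a listed start, and 17.3% of Kcr and 29.4% of Kac peaks between genes. Inside genes but away from starts the shares were close, 28.8% for single-mark Kcr and 31.2% for single-mark Kac peaks.

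Around the start, single-mark Kac peaks were split more evenly between the sides. The centre of 66.9% of single-mark Kcr peaks near a start lay downstream of it, inside the gene, as did 66.5% of shared Kcr and 66.4% of shared Kac peaks. For single-mark Kac peaks it was 53.5%. The median centre was 180 bp downstream of the start for Kcr alone and 83 bp for Kac alone, beside 188 bp for shared Kcr and 185 bp for shared Kac peaks. The start itself was covered by 410 of the 4024 single-mark Kcr peaks and 339 of the 2825 single-mark Kac peaks near it.

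**Figure D2:**
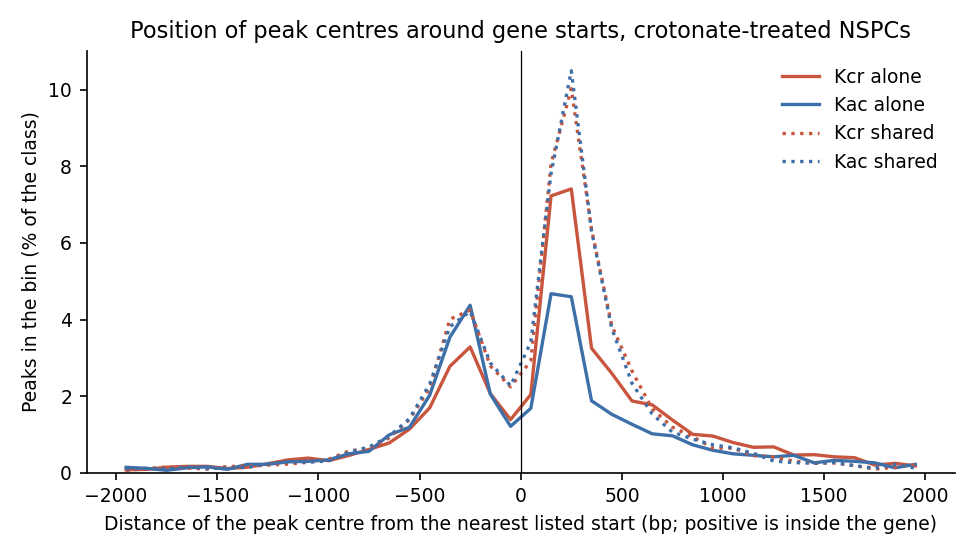
Position of peak centres, in bp from the nearest listed gene start (positive inside the gene), as percent of all peaks of the class per bin of 100 bp, for single-mark Kcr (red line), single-mark Kac (blue line) and shared peaks (dotted). The single-mark Kcr peaks are highest at the bin centred on 250 bp (7.41%) and the single-mark Kac peaks at 150 bp (4.67%).

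At each gene the marks were then read within 1 kb of its start. Of 38569 genes with a position, 1975 (5.12%) had Kcr alone, 1185 (3.07%) had Kac alone, 9062 (23.5%) had both and 26347 neither. The start came from RefSeq for 20939 genes, and either end was used for 17630 without a listed start, so a mark at those can lie at the far end. Of the genes with both, 8428 (93.0%) had peaks that overlapped and 634 had separate ones. In the 7108 of them with a listed start, the median cover of the 2 kb around it was 491 bp of Kcr and 474 bp of Kac, and 49.0% had more bases of Kcr than of Kac. The classes depend on the rule: where a peak had to cover the start, 928 genes had Kcr alone, 1082 Kac alone and 1267 both, and with peaks of at least 500 bp the numbers were 1199, 1379 and 1268, so that genes with 1 mark outnumbered those with both.

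Genes with 1 mark were expressed at levels between those with both and those with neither. The median level over genes, averaged over the 4 crotonate libraries, was 13.47 ± 0.168 TPM for Kcr alone, 13.9 ± 0.300 TPM for Kac alone, 22.1 ± 0.180 TPM for both and 0 TPM for neither (SD, n = 4 libraries). The library medians were 13.3 to 13.7 TPM for Kcr alone and 13.7 to 14.3 TPM for Kac alone, so the single-mark classes nearly touched, and both stood below the class with both marks. With a window of 5 kb the medians were 8.72 TPM for Kcr alone, 7.23 TPM for Kac alone and 18.3 TPM for both, so the order of the single-mark classes turned. The same genes had medians of 11.6 ± 0.346 TPM for Kcr alone, 12.1 ± 0.204 TPM for Kac alone and 20.2 ± 0.362 TPM for both in the control libraries. In RNA of whole cultures, fewer cells that express a gene and less RNA per cell cannot be told apart. The quartiles of single genes ran from 1.77 to 38.4 TPM for Kcr alone and from 1.73 to 37.7 TPM for Kac alone, so the spread of levels was nearly the same in both.

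Which of the 2 marks stood alone also varied little along the scale of expression. Kcr made up 59.7% to 65.0% of single-mark genes in each of 7 bins of level, with no steady trend. Both marks together grew from 2.22% of genes under 0.1 TPM to 70.7% of genes at 100 TPM or more. Kcr alone was listed at 12.3% of genes at 10 to 30 TPM and at 10.8% of genes at 100 TPM or more. Kac alone was listed at 6.96% and 5.82% of the same genes. Among the most expressed genes 12.7% had neither mark.

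**Figure D3:**
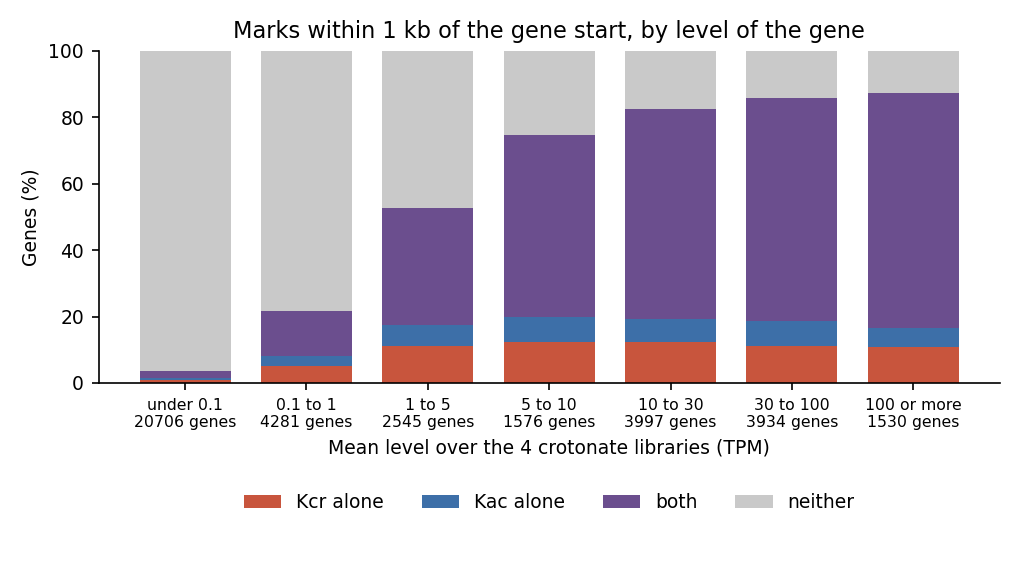
Share of genes, in percent, with Kcr alone, Kac alone, both marks or neither within 1 kb of the start, by mean level in the 4 crotonate libraries (TPM, bins from low to high with their number of genes). The share with both marks grows from 2.22% to 70.7%, while Kcr alone stays between 10.8% and 12.3% from 1 TPM on.

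Single-mark peaks often lay at places with no mark in the control lists. Of single-mark Kcr peaks 55.0% overlapped no control peak of either mark, and 47.6% of single-mark Kac peaks did not. Shared peaks were different, with 61.8% of Kcr and 62.5% of Kac ones overlapping both marks of control. A single-mark Kcr peak met a control Kac peak (38.6%) more often than a control Kcr peak (27.2%). A single-mark Kac peak met a control Kac peak in 45.8% and a control Kcr peak in 31.9%. The mark that stood alone with crotonate was alone in control as well at 6.402% of single-mark Kcr and 20.5% of single-mark Kac peaks. Shared peaks were not far from this, with Kcr alone in control at 5.29% of Kcr and Kac alone in control at 14.6% of Kac ones. The control Kac list is the longer of the 2, which bears on these shares.

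In the untreated forebrain, single-mark Kcr peaks met marked places more often than single-mark Kac peaks. An H3K9ac peak was met by 56.0% of single-mark Kcr and 46.3% of single-mark Kac peaks, and an H3K9cr peak by 38.6% and 29.1%. Of shared Kcr peaks 79.4% met H3K9ac and 62.4% met H3K9cr. The forebrain lists also give a fold enrichment for each peak, which is the authors' value. H3K9ac peaks that met Kcr alone had a median of 12.3, those that met Kac alone 10.4, those that met both 18.5, and those that met neither 5.66. For H3K9cr peaks the medians were 8.01, 7.44, 9.95 and 5.77 in the same order. The order held in both forebrain lists, in which the peaks that met both marks were also the widest.

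The RNA comparison of crotonate with control asked whether genes with 1 mark responded differently. Of 14857 genes tested, 32.3% were higher and 15.9% were lower with crotonate (limma, adjusted p of 0.05). Of 1602 tested genes with Kcr alone, 537 (33.5%) were higher and 276 (17.2%) lower, with a median log2 fold change of 0.07. Of 961 with Kac alone, 326 (33.9%) were higher and 159 (16.5%) lower, with a median of 0.10. Genes with both marks had 32.9% higher and 18.3% lower with a median of 0.07, and genes with neither 35.5% and 12.3% with a median of 0.18. The shares of both single-mark classes lie near the background of all tested genes. The split depends on the scaling: median-of-ratios scaling shifted the log2 fold change of the typical gene by -0.12. Of all called genes 67.1% were higher as deposited, 45.4% after median-of-ratios scaling and 45.6% after quantile normalization.

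The response differed more by the marks in control cells than by which mark stood alone with crotonate, although no test was made between these classes. Of the genes with neither mark in control, 251 of 465 with Kcr alone (54.0%), 133 of 247 with Kac alone (53.8%) and 476 of 627 with both (75.9%) were higher with crotonate. Their median log2 fold changes were 0.42, 0.42 and 0.68. Of the genes that had both marks in control, 21.8% of those with Kcr alone, 23.6% of those with Kac alone and 26.7% of those with both were higher, with medians of -0.02, -0.02 and 0.02. Genes with no mark in either condition stood between, with 39.6% of 2488 higher and a median of 0.26. Levels differed as well. The median of genes with Kcr alone was 7.39 TPM with crotonate and 4.23 TPM in control where control had neither mark, and 33.9 TPM with crotonate and 35.2 TPM in control where control had both. How far the low starting level makes the larger change was not tested, since it moves with the control state. After quantile normalization the genes with neither mark in control had medians of 0.12 for Kcr alone, 0.12 for Kac alone, 0.34 for both and -0.01 for no mark in either condition.

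Large increases followed the same pattern. At least 2-fold higher were 6.15% of all tested genes, 7.43% of those with Kcr alone and 6.35% of those with Kac alone. Where control had neither mark it was 99 of 465 genes with Kcr alone (21.3%), 47 of 247 with Kac alone (19.03%) and 189 of 627 with both (30.1%). Of the genes with no mark in either condition it was 309 of 2488 (12.4%), also above the share of all tested genes. Where control had both marks it was 0.626%, 1.57% and 1.71%.

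**Figure D4:**
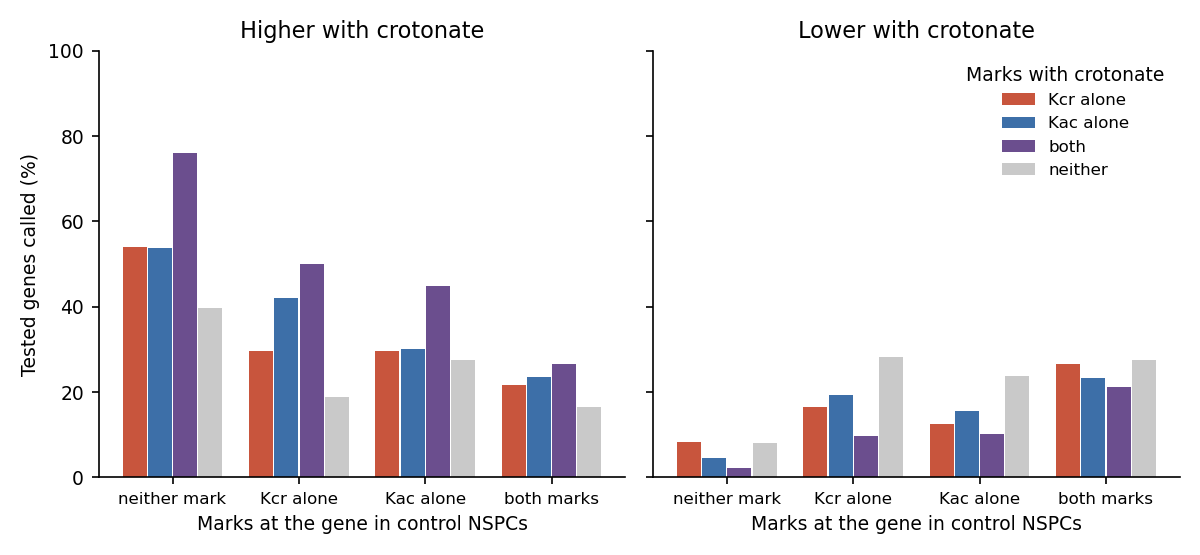
Percent of tested genes called higher (left) or lower (right) with crotonate by limma, by the marks at the gene in control NSPCs (groups along the axis) and with crotonate (colours). With neither mark in control, 54.0% of genes with Kcr alone, 53.8% with Kac alone and 75.9% with both are higher, beside 32.3% of all tested genes.

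The genes with Kcr alone described here as raised most had no listed mark of either kind in control. Kcnt1, a sodium-activated potassium channel, had 18.2, 22.7, 24.2 and 20.3 TPM with crotonate and 0.555, 1.63, 3.03 and 2.29 TPM in control, with a log2 fold change of 3.03 on the log2(TPM + 1) scale (SE 0.23, adjusted p = 7.39e-07). Mgarp, whose promoter is shown above with the Kcr peak in capitals, had 14.3, 15.9, 16.4 and 18.3 TPM with crotonate and 0.441, 1.06, 1.36 and 2.48 TPM in control. Its Kcr peak of 462 bp covered the start, the next Kac peak was 19105 bp away, and the log2 fold change was 2.95. Rcn3, a calcium-binding protein of the endoplasmic reticulum, averaged 36.6 ± 6.01 TPM with crotonate and 4.47 ± 1.42 TPM in control (SD, n = 4 each). Kcp, a secreted modulator of bone morphogenetic protein signals, averaged 9.03 ± 2.00 TPM with crotonate and 0.458 ± 0.278 TPM in control. An H3K9ac peak was listed in the forebrain at Kcnt1, Mgarp, Rcn3 and Kcp and an H3K9cr peak at none of these 4.

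The 5 genes with Kcr alone that were lowered most had smaller changes. Cdca2, which brings a phosphatase to mitotic chromosomes, had 29.5, 23.9, 30.3 and 29.5 TPM with crotonate and 50.3, 47.7, 45.2 and 54.2 TPM in control, with a log2 fold change of -0.78 (SE 0.08, adjusted p = 5.29e-06). Gcat, an enzyme of threonine breakdown, averaged 20.3 ± 1.69 TPM with crotonate and 35.6 ± 3.30 TPM in control. Fanca, of the Fanconi anaemia repair complex, averaged 18.8 ± 1.45 TPM with crotonate and 31.8 ± 3.603 TPM in control. Rpia, an enzyme of the pentose phosphate pathway, averaged 12.4 ± 1.92 TPM with crotonate and 20.8 ± 2.22 TPM in control. Gper1, a membrane receptor for oestrogen, averaged 3.30 ± 0.588 TPM with crotonate and 6.06 ± 1.24 TPM in control. Their Kcr peaks were 175 to 228 bp wide, beside a median of 226 bp for all single-mark Kcr peaks, and 2 of the 5 genes had no listed mark in control.

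The most expressed genes with Kcr alone were Rps6, Rpl7a, Rps25 and Rpl8, which encode ribosomal proteins, and Cox8a, a subunit of cytochrome c oxidase. Rps6 had 2099, 2048, 2070 and 2137 TPM with crotonate and 2021, 2024, 2003 and 1936 TPM in control, with a log2 fold change of 0.07 (SE 0.03, adjusted p = 0.0632), which was -0.07 after median-of-ratios scaling. None of the 5 passed the test, though Rps6 was higher after quantile normalization (0.09, adjusted p = 0.0146) and Rps25 lower after median-of-ratios scaling (-0.23, adjusted p = 0.00174). Rpl7a, Rpl8 and Cox8a had values of 0.03, 0.01 and 0.03 as deposited, and fell after median-of-ratios scaling by 0.11, 0.13 and 0.10, past the threshold. All 5 had H3K9ac and H3K9cr peaks in the forebrain and Kac in control, and Kcr in control was listed at 4 of them. Ribosomal protein genes have many processed pseudogenes, and reads may be split among copies and these levels are uncertain.

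The genes with Kac alone that were raised most also had no listed mark in control. Bst2, the antiviral protein tetherin, had 53.2, 61.2, 66.2 and 61.2 TPM with crotonate and 14.9, 9.34, 8.47 and 7.66 TPM in control, with a log2 fold change of 2.51 (SE 0.15, adjusted p = 1.03e-07). Scn3a, a sodium channel of developing neurons, had 9.44, 6.97, 7.64 and 6.92 TPM with crotonate and 0.440, 0.501, 0.359 and 1.16 TPM in control, with a log2 fold change of 2.45. Snhg11, a long noncoding RNA that hosts small nucleolar RNAs, had 34.3, 35.7, 35.2 and 32.2 TPM with crotonate and 6.30, 4.67, 4.69 and 6.64 TPM in control. Eef1a2, the translation elongation factor of neurons and muscle, averaged 28.02 ± 3.90 TPM with crotonate and 4.65 ± 0.844 TPM in control. Snap25, a protein of synaptic vesicle fusion, had 24.1, 26.8, 25.9 and 23.3 TPM with crotonate and 4.32, 5.85, 2.98 and 4.13 TPM in control. Its class rests on the 1 kb window alone, since its Kac peak, 831 bp from the nearer end of the gene, and a Kcr peak, 1004 bp from it, overlapped each other and so were shared. H3K9ac and H3K9cr peaks were listed in the forebrain at Scn3a, Eef1a2 and Snap25 and not at Bst2 or Snhg11.

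The 5 genes with Kac alone that were lowered most all had a Kac peak in control. Cenpe, a kinesin of the kinetochore, had 23.8, 24.5, 24.97 and 25.4 TPM with crotonate and 41.6, 39.2, 39.4 and 41.6 TPM in control, with a log2 fold change of -0.69 (SE 0.07, adjusted p = 4.29e-06). Hmgcs1, the synthase that starts the mevalonate pathway, had 547, 451, 532 and 558 TPM with crotonate and 965, 803, 881 and 842 TPM in control, with a log2 fold change of -0.74. Kif22, a chromosome-binding kinesin, averaged 66.1 ± 5.45 TPM with crotonate and 107.8 ± 4.25 TPM in control. Rgs16, a regulator of G-protein signalling, averaged 9.67 ± 0.918 TPM with crotonate and 16.9 ± 2.27 TPM in control. Poc1a, a centriole protein, averaged 7.33 ± 1.03 TPM with crotonate and 12.4 ± 0.403 TPM in control.

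Among the most expressed genes with Kac alone, Tmsb4x, which binds actin monomers and is X-linked, averaged 3919 ± 375 TPM with crotonate and 4434 ± 158 TPM in control, with a log2 fold change of -0.18 (SE 0.06, adjusted p = 0.0165). The call ended after quantile normalization (adjusted p = 0.371). Rps24 averaged 3802 ± 77.5 TPM with crotonate and 3850 ± 150 TPM in control (adjusted p = 0.664). Rpl13 was higher by 0.10 and Rps15 by 0.16, calls that ended after median-of-ratios scaling, where Rpl13 was at -0.03. Rps12 had a log2 fold change of -0.04 (adjusted p = 0.269), and was lower together with Rps24 after median-of-ratios scaling. All 5 had both marks in control and both in the forebrain, so a missing Kcr peak with crotonate stood beside a level that moved little. The most expressed genes with both marks were Ckb, Eef1a1, Fabp7, Tmsb10 and Atp5b, at 3612 to 9310 TPM.

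**Figure D5:**
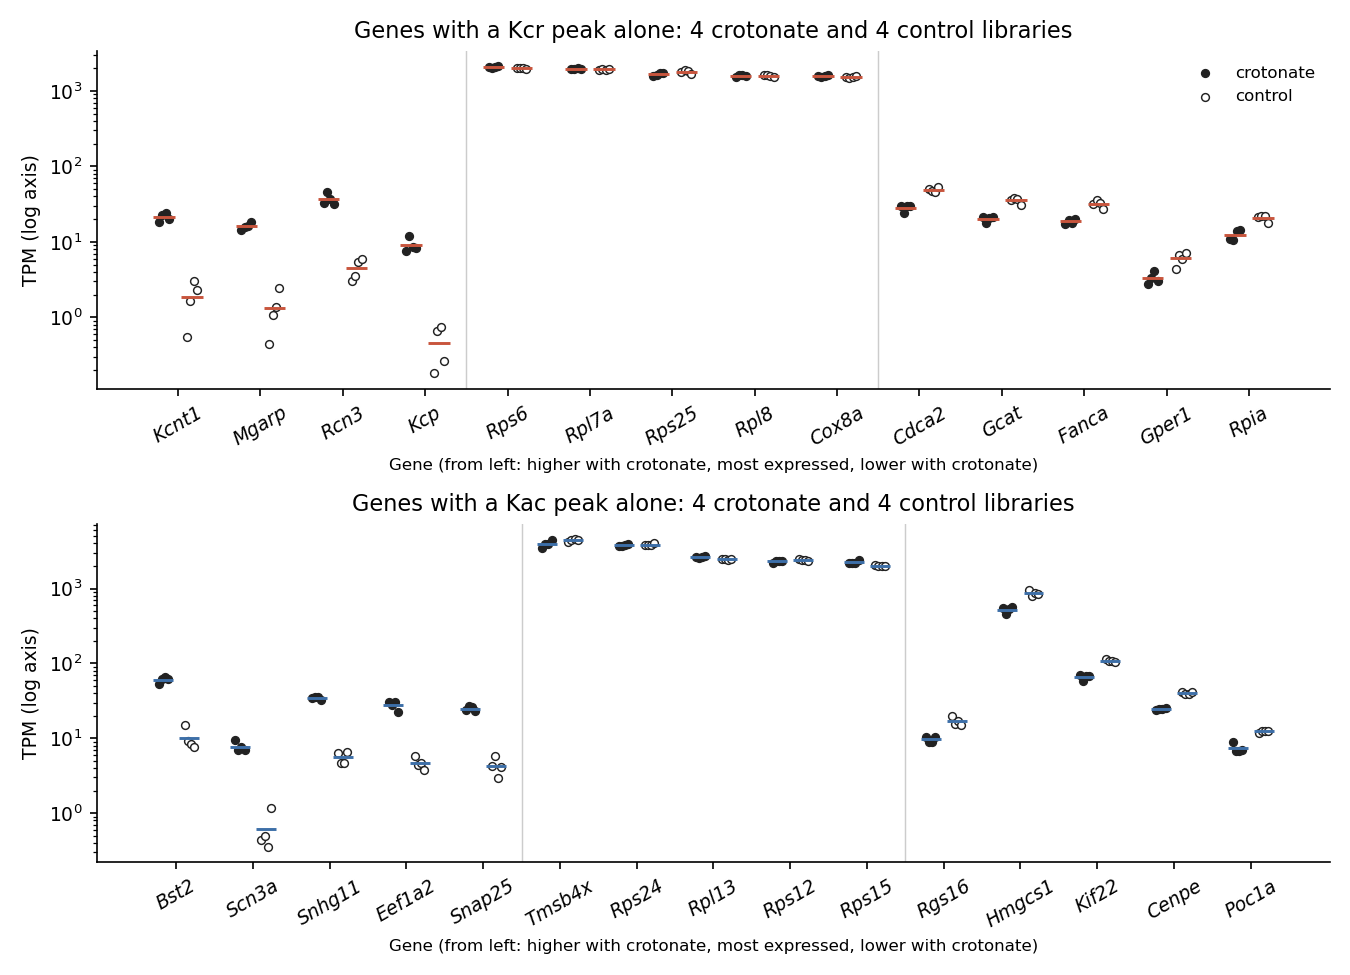
Level in TPM (log axis) of named genes with Kcr alone (top) and Kac alone (bottom) in 4 crotonate libraries (filled) and 4 control libraries (open), with a line at each group mean. From left are genes raised most, most expressed and lowered most; the raised genes separate by far more than the others.

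Gene lists of the tissue and treatment, chosen with earlier results of these data known, were read for the single-mark members, beside 11.5% of placed and tested genes with Kcr alone, 6.91% with Kac alone and 58.1% with both. Genes of stem cell identity mostly had both marks. Of 25 genes of radial glia and neural stem cells 22 had both. Fgfr2, a receptor for fibroblast growth factor, had Kcr alone and averaged 18.1 ± 2.85 TPM with crotonate and 14.1 ± 1.62 TPM in control (log2 fold change 0.34, adjusted p = 0.0221, and 0.120 after median-of-ratios scaling). That call also ended in 4 of the 8 fits without 1 library. Pax6, a regulator of cortical progenitors, had Kac alone and averaged 20.3 ± 2.60 TPM with crotonate and 24.7 ± 4.74 TPM in control (adjusted p = 0.190). Of 50 developmental transcription factors known as Polycomb targets, 47 had neither mark, and 2 had both. Their median level was 0.218 TPM and 6 of the 50 were tested, so the shares of tested genes above are no like comparison. Of all placed genes 68.3% had neither mark, as did 78.2% of those at 0.1 to 1 TPM. Tbx2, a T-box factor, had Kcr alone, at 0.623 ± 0.173 TPM with crotonate and 0.257 ± 0.164 TPM in control, and was too low to be tested. Among 21 proneural and basal progenitor factors, Dlx1 and Gsx2 had Kcr alone and Eomes and Btg2 had Kac alone. Dlx1, shown above with its Kcr peak in capitals, averaged 1.31 ± 1.12 TPM with crotonate and 1.29 ± 1.13 TPM in control (adjusted p = 0.913).

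Most cell cycle genes with 1 mark were lower, as were most of the genes on the same lists whatever their marks. On the list of 30 G1/S and replication genes, 7 had Kcr alone, 4 had Kac alone and 10 had both. All 7 with Kcr alone were lower, and 3 of the 4 with Kac alone, beside 27 of all 30 on the list and 15.9% of all genes tested. Cdk4, the cyclin D partner kinase, had Kcr alone and averaged 325 ± 9.88 TPM with crotonate and 443 ± 9.80 TPM in control (log2 fold change -0.45, adjusted p = 1.08e-06). Pcna, the sliding clamp of DNA polymerase, had Kac alone and averaged 363.5 ± 21.96 TPM with crotonate and 550.2 ± 24.6 TPM in control (log2 fold change -0.60, adjusted p = 6.56e-07). Ccne1, cyclin E1, had Kac alone and a log2 fold change of 0.14 (adjusted p = 0.0713). Of 30 genes of G2/M and mitosis, 2 of 3 with Kcr alone and 3 of 3 with Kac alone were lower, beside 29 of all 30. Mki67, a surface protein of mitotic chromosomes, had Kcr alone and averaged 101.5 ± 6.79 TPM with crotonate and 144 ± 1.04 TPM in control. The counts held under both other scalings, but for G2/M with Kcr alone, where median-of-ratios scaling gave 3 of 3.

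Of single-mark genes on the neuronal lists, most were higher with crotonate, as were most genes of those lists in all. Of 30 genes of synapse and excitability 3 had each mark alone, of which 2 with Kcr and 3 with Kac were higher. Syt3, a synaptotagmin, had Kcr alone and averaged 8.30 ± 2.21 TPM with crotonate and 1.07 ± 0.292 TPM in control (log2 fold change 2.15). Sv2a, a synaptic vesicle glycoprotein, had Kac alone and averaged 33.6 ± 2.10 TPM with crotonate and 20.5 ± 1.33 TPM in control. Syt11 had Kcr alone and a log2 fold change of -0.13 (adjusted p = 0.0738), which passed the threshold after median-of-ratios scaling (0.00118) and with the replicate number as a block (0.0202). REST silences neuronal genes outside neurons. Of 20 of its neuroendocrine targets, 2 of 2 with Kcr alone and 3 of 3 with Kac alone were higher, and 13 had neither mark. Snap25, whose Kac peak was a shared one, was among the 3 and is on the synapse list as well. After quantile normalization 1 of the 2 with Kcr alone was higher, since Kcnh2, a potassium channel, then had an adjusted p of 0.0888. Of all tested genes of these lists, 17 of 26 of the neuronal differentiation list, 22 of 28 of the synapse list and 15 of 16 REST targets were higher, beside 32.3% of all genes tested. Cdk5r2, an activator of the kinase Cdk5, averaged 3.03 ± 0.159 TPM with crotonate and 0.690 ± 0.224 TPM in control with Kcr alone. Gap43, a protein of growing axons with Kac alone, fell to 500.2 ± 22.3 TPM with crotonate, against 622 ± 34.3 TPM in control. The summed neuronal markers given above were lower with crotonate, and their part in these values was not tested.

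Genes of the interferon response and of MHC class I had Kcr alone at 6 places and Kac alone at 1. Of the 25 genes listed, H2-K1, Tap1, Tapbp, Psmb9, Irf9 and Rsad2 had Kcr alone, Bst2 had Kac alone and 6 had both. None of the 6 had a mark in control, and 4 of the 6 were higher under all 3 scalings, beside 17 of the 22 tested genes of the whole list as deposited and 32.3% of all genes tested. H2-K1, a class I heavy chain, had 175, 168, 155 and 162 TPM with crotonate and 48.0, 66.4, 58.7 and 69.7 TPM in control, with a log2 fold change of 1.44 (SE 0.10, adjusted p = 3.02e-07). Its Kcr peak was 707 bp wide and the next Kac peak 18595 bp away. Tap1, which carries peptides into the endoplasmic reticulum, averaged 13.7 ± 0.653 TPM with crotonate and 7.02 ± 1.27 TPM in control. Tapbp, which links that transporter to class I molecules, averaged 19.2 ± 0.473 TPM with crotonate and 18.1 ± 3.51 TPM in control and did not pass the test (adjusted p = 0.511). H2-K1 has close paralogs, so its reads may be shared among them. Tap1, Tapbp, Psmb9 and H2-K1 lie in 1 gene cluster and so are not independent places.

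Imprinted genes, expressed from 1 parental allele, had Kcr alone at Igf2, Peg3, Mest and Zrsr1 and Kac alone at Peg12 and Dlk1. Of the 21 tested genes of this list, whatever their marks, 15 were higher and 0 lower, beside 32.3% and 15.9% of all genes tested. Dlk1, a membrane protein of the Notch ligand kind, averaged 17.2 ± 4.13 TPM with crotonate and 5.17 ± 1.28 TPM in control (log2 fold change 1.56, adjusted p = 7.83e-05). Peg12 had a log2 fold change of -0.17 (adjusted p = 0.0589, and 0.0218 with the replicate number as a block). Igf2, a growth factor, had 6.47, 1.83, 5.08 and 2.07 TPM with crotonate and 2.60, 0.333, 0.814 and 0.444 TPM in control, so its groups overlapped (log2 fold change 1.24, adjusted p = 0.0117, 0.0818 after quantile normalization). Peg3 was near the limit, with a Kcr peak 984 bp from its start and a Kac peak 1066 bp from it that lay inside the Kcr peak, so that both were shared peaks. Of all genes with 1 mark, 14 of 1975 with Kcr alone and 19 of 1185 with Kac alone had such a shared peak in their window. Egr1, an immediate early transcription factor with Kac alone, was likewise near it, with Kac at 758 bp and Kcr at 1108 bp, and averaged 350 ± 23.9 TPM with crotonate and 204 ± 11.1 TPM in control.

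Metabolic lists were read in the same way. Of 29 genes of fatty acid oxidation and crotonyl-CoA handling, 20 had both marks, 4 had Kcr alone and none had Kac alone. Of the 28 tested, whatever their marks, 16 were higher and 4 lower, beside 32.3% and 15.9% of all genes tested. Slc25a20, the mitochondrial carnitine carrier, averaged 46.2 ± 2.19 TPM with crotonate and 29.3 ± 2.31 TPM in control (log2 fold change 0.64, adjusted p = 1.99e-06). Etfa, of the electron transfer flavoprotein, was higher by 0.31, and Acss2, which makes short-chain acyl-CoA from free acids, fell by 0.30 on the log2 scale. Acat1, a mitochondrial thiolase, was at 131 ± 8.91 TPM with crotonate and 131 ± 7.56 TPM in control. Of 23 genes of cholesterol synthesis, Fdps and Hsd17b7 had Kcr alone and Hmgcs1 had Kac alone. Whatever their marks, 19 of the 23 were lower. Fdps averaged 300.2 ± 26.3 TPM with crotonate and 475 ± 31.3 TPM in control. Fdps passed the test and Hsd17b7 did not (adjusted p = 0.107, 0.0197 with the replicate number as a block, and past the threshold under both other scalings).

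The integrated stress response list had Kac alone more often, with 4 of 21 genes against 1 with Kcr alone. Of the 20 tested genes of the list, whatever their marks, 12 were lower and 3 higher, beside 15.9% and 32.3% of all genes tested. Psat1, shown above with its Kac peak in capitals, had 230, 224, 215 and 227 TPM with crotonate and 296, 307, 296 and 307 TPM in control, a log2 fold change of -0.43 (SE 0.04, adjusted p = 4.44e-06). Shmt2, the mitochondrial serine hydroxymethyltransferase, averaged 105 ± 5.84 TPM with crotonate and 143 ± 7.88 TPM in control. Cebpb averaged 3.48 ± 1.12 TPM with crotonate and 1.22 ± 0.626 TPM in control (adjusted p = 0.00783, and 0.0968 after quantile normalization). Mthfd2, a mitochondrial folate enzyme, had Kcr alone and averaged 29.3 ± 1.44 TPM with crotonate and 48.4 ± 1.36 TPM in control.

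Genes that write, erase or read acyl-lysine mostly had both marks, as did 63.1% of all genes at 10 to 30 TPM and 67.3% at 30 to 100 TPM. The median levels of these lists, and of the Polycomb repressors, were 23.5 to 49.3 TPM. Both were listed at 8 of 11 writers, 15 of 18 erasers and 13 of 16 readers, and at 17 of 20 Polycomb repressors. Whatever their marks, 1 writer, 8 erasers, 0 readers and 3 Polycomb repressors were higher, beside 32.3% of all genes tested. Lower were 2 writers, 4 erasers, 4 readers and 8 Polycomb repressors, beside 15.9% of all genes tested. Hdac6, a cytoplasmic deacetylase, had Kcr alone and averaged 32.4 ± 3.10 TPM with crotonate and 23.3 ± 1.71 TPM in control (log2 fold change 0.46, adjusted p = 1.76e-04). Kat7, a histone acetyltransferase, had Kcr alone and did not pass the test (adjusted p = 0.0756). Yeats2, a reader with a YEATS domain, had Kac alone and did not pass either (adjusted p = 0.0758). Both moved past the threshold, downward, after median-of-ratios scaling. Ezh1, a Polycomb methyltransferase with Kcr alone, was higher by 0.42 (adjusted p = 0.0128) and at -0.01 after quantile normalization.

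Among markers of other cell types few had 1 mark, beside 11.5% of placed and tested genes with Kcr alone and 6.91% with Kac alone. Whatever their marks, 4 of 10 tested astrocyte genes were higher and 2 lower. Of 9 tested oligodendrocyte genes 3 were higher and 1 lower, and of 3 tested endothelial and pericyte genes 1 was higher and 0 lower. Of all genes tested 32.3% were higher and 15.9% lower. Aldh1l1, an astrocyte enzyme of folate metabolism, had Kcr alone and averaged 52.03 ± 7.22 TPM with crotonate and 32.8 ± 5.51 TPM in control (log2 fold change 0.65, adjusted p = 0.00127). Sparcl1, a secreted astrocyte protein, had Kac alone and a log2 fold change of 0.51 (adjusted p = 0.118, and 8.14e-05 with the replicate number as a block). Sox10, a factor of oligodendrocyte precursors, had Kcr alone and did not pass the test (adjusted p = 0.448). Kdr, a receptor of endothelial cells, had Kac alone and averaged 2.03 ± 0.336 TPM with crotonate and 0.532 ± 0.185 TPM in control. Of 11 genes of microglia and blood 10 had neither mark, at a list median of 0.143 TPM, beside 78.2% of all genes at 0.1 to 1 TPM. The 7 CDK inhibitors, whatever their marks, included 4 that were higher and 3 that were lower. Cdkn2b, an inhibitor of Cdk4 and Cdk6, had Kac alone and 50.7, 53.5, 55.8 and 40.3 TPM with crotonate, against 29.97, 26.3, 26.5 and 27.1 TPM in control (log2 fold change 0.83, adjusted p = 7.68e-06).

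The widest single-mark peaks were of several kinds. The widest Kcr peak without Kac was 1170 bp inside Ttc7, at chromosome 17, 87330486 to 87331655 on GRCm38, with the nearest Kac peak 46777 bp away and both marks there in control. Cthrc1, a secreted protein of the extracellular matrix, had one of 1027 bp, with no mark in control. Among Kac peaks without Kcr, one of 1049 bp lay at the start of Dnmt3b, a de novo DNA methyltransferase, with both marks in control and in the forebrain. One of 1043 bp lay at the start of Cntn6, a neuronal cell adhesion molecule, at chromosome 6, 104492455 to 104493497. It had no Kcr peak within 980174 bp, overlapped no other list, and Cntn6 was at 0.840 ± 0.0994 TPM with crotonate. The widest shared peaks, 2226 bp for Kcr at Anp32a and 2525 bp for Kac at Zfp36l1, overlapped all 6 other lists, those of MS-275 included.

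On the X chromosome both lists were sparse. It held 84 Kcr peaks (0.360%) and 99 Kac peaks (0.458%), against 3.02% of H3K9cr and 3.09% of H3K9ac peaks of the forebrain. Of 491 tested X-linked genes 8.35% had Kcr alone, 9.37% had Kac alone, 4.89% had both and 77.4% neither. Of 13405 tested autosomal genes 11.6% had Kcr alone, 6.83% had Kac alone, 60.1% had both and 21.4% neither. In the forebrain an H3K9ac peak was listed at 81.1% of the same X-linked and 85.1% of the autosomal genes. Kac alone was thus as frequent as Kcr alone on the X chromosome, and Tmsb4x, Rbbp7 and Naa10, which had Kac alone, and Hdac6, which had Kcr alone, lie there. The control lists were sparse there too, with 0.492% of Kcr and 1.06% of Kac peaks.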

How the data were processed

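Peak lists of 1 ChIP library each and RNA of 12 NSPC libraries were used. Per the submitters' processing notes the tools include Bowtie2 2.3.5.1, MACS2 2.2.5 and Salmon 1.0.0 and the build is GRCm38. The control library and threshold behind the NSPC lists are not given in the sources used here, and read depth is unknown. The NSPC lists hold deposited positions alone. In the forebrain lists the authors also deposited MACS2's fold enrichment, which was used, and a score and −log10 p and q values, which were not. Expression is TPM as deposited by the authors, which keeps no depth.

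Overlaps were computed in Python 3.11.15 and checked against bedtools 2.31.1. A gene had a mark where a peak lay within 1 kb of its RefSeq start (GRCm38.p6), or of either end where no start was listed. That placed 38569 of 53974 genes in the TPM table (71.5%). Crotonate was compared with control by limma 3.58.1 with a trend on log2(TPM + 1). The 12 libraries of the control, crotonate and MS-275 groups were in 1 fit and shared 1 estimate of the spread. Genes at 1 TPM or more in at least 4 of the 12 were tested (two-sided, Benjamini-Hochberg, 0.05). With control and crotonate libraries only, 4448 of 14077 tested genes were higher and 2321 lower, beside 4796 and 2356 of 14857 in the main fit. The fit was tested on simulated data. Fold changes on this scale understate the change of low genes. P-values measure the spread between the libraries, which the study calls biological replicates.

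Libraries with the same replicate number deviated together (correlations of 0.119 to 0.241 in 12 pairs, against -0.197 to 0.0993 in 36 others), so the numbers may pair the samples. The main fit nonetheless had no pairing term, so its counts and p-values are unpaired. The replicate number entered as a block only among the alternatives. Named genes were, per single-mark class, the 5 most expressed, the 5 called with the largest change in each direction with separate libraries and a mean of at least 5 TPM, the single-mark members of 25 lists (the 3 most expressed where there were over 5) and the genes nearest the widest peaks. For both marks the 5 most expressed were taken. Some genes that meet this rule are not reported here. Promoter windows shown with peak bases were picked after their values were seen. Members and lists were chosen with earlier results of these data known. The alternatives were other windows, widths, overlaps, scalings and filters, the replicate block and leaving out each library.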

Additional observations from a re-analysis of the deposited data

Results flagged for a closer look

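Among 73 sets of 4 libraries, 5 had 1 library far from the other three. Chance alone flags about 1 in 20 such sets. Cdca2, with Kcr alone, had 23.9 TPM in crotonate replicate 2 and 29.5 to 30.3 TPM in the others. Gcat, with Kcr alone, had 17.8 TPM in crotonate replicate 2 and 20.9 to 21.5 TPM in the others. Rps12, with Kac alone, had 2219 TPM in crotonate replicate 1 and 2337 to 2342 TPM in the others. Poc1a, with Kac alone, had 8.87 TPM in crotonate replicate 1 and 6.71 to 6.96 TPM in the others, and 11.8 TPM in control replicate 1 and 12.5 to 12.6 TPM in the other controls. The cause was not tested.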

How the results depend on the processing

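Each mark had 1 library, so no peak comparison has a replicate check, and the unknown depth and threshold limit what an absent peak means. Shared Kcr peaks numbered 9432 of 23301 with the stricter reciprocal overlap. Where both peaks had to reach 500 bp, 1448 of 3002 Kcr and 1440 of 3658 Kac peaks were shared. Shared peaks were then no longer most of the Kcr list or, by the second rule, of either. Median widths with peaks joined over 1 kb, and for peaks of at least 500 bp, were 654 and 659.5 bp for shared Kcr, 238 and 584 bp for Kcr alone, 643 and 690 bp for shared Kac, and 261 and 609 bp for Kac alone. Genes with Kcr alone numbered 928 when the peak had to cover the start and 1199 for peaks of at least 500 bp, with 1082 and 1379 for Kac alone, and genes with both marks 1267 and 1268. With listed starts alone, an alternative chosen after seeing the data, 11395 genes had neither mark. Median crotonate levels with a window of 0 bp, a window of 5 kb and in tested genes alone were 11.96, 8.72 and 20.0 TPM for Kcr alone, 14.9, 7.23 and 21.6 TPM for Kac alone, and 16.7, 18.3 and 26.5 TPM for both, and 7.44 TPM for neither in tested genes.

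After median-of-ratios scaling 4213 genes were lower, with 503 of Kcr alone, 274 of Kac alone and 2695 of both. After quantile normalization 3091 were higher, with 348 of Kcr alone, and 3685 were lower, with 256 of Kac alone. With a call in at least 1 of the fits compared, median-of-ratios scaling turned Rpl7a to -0.11, Rpl8 to -0.13, Cox8a to -0.10, Rpl13 to -0.028, Rpl11 to -0.091 and Sdhc to -0.0049 on the log2 scale, and quantile normalization turned Ezh1 to -0.0079. With a call in neither, median-of-ratios scaling turned Rps6 to -0.066, Eef1a1 to -0.061, Fabp7 to -0.12, Dlx1 to -0.0040, Tapbp to -0.031, Mest to -0.11, Rpl37 to -0.077, Ndufb5 to -0.078, Uqcrc2 to -0.074 and Uqcrfs1 to -0.055, and quantile normalization turned Eef1a1 to -0.049, Dlx1 to -0.40, Tapbp to -0.039, Acat1 to 0.023, Slc7a11 to -0.28 and Sox10 to -0.098. Without 1 library each, values not called crossed 0 for Rpl8 (-0.0085 to 0.025), Fabp7 (-0.026 to 0.060), Dlx1 (-0.17 to 0.20), Acat1 (-0.042 to 0.048), Mest (-0.022 to 0.052) and Rps24 (-0.029 to 0.0096). The cause was not tested. Without 1 library each, 4347 to 4700 genes were higher (491 to 534 of Kcr alone, 294 to 318 of Kac alone, 2409 to 2628 of both) and 2102 to 2250 lower (235 to 252, 139 to 155 and 1326 to 1419). The class medians were then 13.41 to 13.53 TPM for Kcr alone, 13.77 to 13.99 TPM for Kac alone, 22.0 to 22.2 TPM for both and 0 TPM for neither. With the replicate block 4966 genes were higher and 2484 lower (554 and 286 of Kcr alone, 332 and 169 of Kac alone), and of the named genes the calls of Eef1a1, Syt11, Peg12, Hsd17b7 and Sparcl1 were gained and no other call changed. Of 1756 values of 104 named genes, 1643 had the direction and side of the threshold given in the text or were at 0, 42 lost a call in the same direction, 35 gained one and 36 changed direction, 7 of these with a call in either fit.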
